A study of Mus musculus with 3 samples.

Results

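Interferon-stimulated genes are the genes that cells switch on when they sense an interferon. A fixed list of 46 of them was followed through 3 populations of JC, a line from a mouse mammary carcinoma, grown in culture. The members were taken by gene symbol from the deposited table of 55471 features. Of the 46 symbols, 45 were found, and Ddx58 was matched by its Ensembl identifier to the row named Rigi. JC-WT is the population labelled WT. JC-P is described as recovered from orthotopic tumours of the mammary fat pad at day 14, although its treatment label reads metastasis. JC-M3 carries the same treatment label and came from lung metastases, reached in 3 rounds of tail vein injection with recovery at day 28. All 3 populations carry the genotype label WT, and RNA came from cells in culture. Neither the strain and number of the host animals nor whether animals were pooled is given in the sources used here.

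Each population had 1 library of polyadenylated RNA. A difference between populations therefore has no replicate check, and no test across genes was run. Levels are TPM, a length-scaled share of all transcripts that can be compared between genes. Ratios are log2 values of TPM + 0.5, with JC-P/JC-WT for JC-P divided by JC-WT, and the bracket after a ratio is its exact 95% counting interval. The intervals cover counting error only, not variation between cultures, and duplicate reads are not independent molecules. A mean of 1 TPM or more counts as measured, which 14527 features reached, all 46 members among them. The libraries held 18093426 (JC-WT), 22132593 (JC-P) and 23386413 (JC-M3) assigned reads, and the lowest mean of any member was 31.7 TPM. In bulk RNA, fewer cells of a type and less RNA per cell cannot be told apart.

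Cells make interferons after sensors such as RIG-I and MDA5 detect viral or misplaced nucleic acid. Type I interferons bind the receptor pair IFNAR1 and IFNAR2, whose kinases JAK1 and TYK2 phosphorylate STAT2. A complex with STAT2 and IRF9 binds the interferon-stimulated response element (ISRE), whereas gamma interferon acts through the gamma-activated sequence (GAS). The products sense nucleic acid, block viral entry or translation, attach the ubiquitin-like ISG15 to proteins, or attack vacuoles of parasites. In tumour cells some of these genes can be expressed without infection.

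The promoters were searched for the sequences that these complexes recognise. RefSeq promoter windows (GRCm38.p6, from 250 bases before to 50 bases after the transcription start) were at hand for 36 of the 46 members. The ISRE core was taken as GAAA, any 2 bases, then GAAA on either strand, and the GAS core as TTCNNNGAA. An ISRE core was present in 17 of the 36 members (47.2%), against 3.99% of 27025 genes with a window. The GAS core, a looser pattern, was present in 8 of 36 (22.2%), against 9.55% of all genes. Eif2ak2, Oas1a, Bst2 and Igtp held both, and in Bst2 the GAS core shares letters with an ISRE core. Matches are letters in the reference genome, not binding, and the members were listed as interferon-stimulated genes to begin with.

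The stretches printed here show the arrangement in members of each role, with the core in capitals. They run 5′ to 3′ on the gene's strand and lie wholly upstream of the RefSeq start. In the GENCODE M21 gene models, the Irgm1 stretch, the Gbp2 core and the end of the Gbp3 stretch lie inside the gene. Isg15, Ifit1, Bst2, Gbp3 and Irgm1 show repeated cores, and Ifit3 and Ifit3b share the same 2. Irf1 shows a GAS core (TTCCCCGAA) with no ISRE core in its window.
Isg15, chr4:156200855-156200916, minus strand: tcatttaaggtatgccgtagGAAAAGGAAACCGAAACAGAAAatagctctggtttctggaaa
Ifit1, chr19:34640765-34640833, plus strand: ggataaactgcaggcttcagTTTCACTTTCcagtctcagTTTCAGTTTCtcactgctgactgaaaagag
Ifit3, chr19:34583353-34583436, plus strand: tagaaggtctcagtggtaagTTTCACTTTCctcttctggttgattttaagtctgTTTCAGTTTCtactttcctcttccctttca
Ifit3b, chr19:34607749-34607832, plus strand: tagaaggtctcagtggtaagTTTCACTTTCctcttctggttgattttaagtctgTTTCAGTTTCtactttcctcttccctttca
Oas3, chr5:120777705-120777754, minus strand: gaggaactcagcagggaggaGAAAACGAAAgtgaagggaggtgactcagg
Rsad2, chr12:26456543-26456592, minus strand: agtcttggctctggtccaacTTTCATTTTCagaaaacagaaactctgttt
Bst2, chr8:71537567-71537622, minus strand: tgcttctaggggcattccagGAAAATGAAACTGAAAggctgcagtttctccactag
Stat2, chr10:128270256-128270305, plus strand: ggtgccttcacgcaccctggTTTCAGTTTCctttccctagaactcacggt
Gbp2, chr3:142620584-142620633, plus strand: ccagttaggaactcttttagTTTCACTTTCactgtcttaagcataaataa
Gbp3, chr3:142559979-142560034, plus strand: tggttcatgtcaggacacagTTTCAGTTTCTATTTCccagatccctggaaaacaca
Irgm1, chr11:48871421-48871470, minus strand: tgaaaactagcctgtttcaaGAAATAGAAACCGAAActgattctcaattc
Irf1, chr11:53769904-53769952, plus strand: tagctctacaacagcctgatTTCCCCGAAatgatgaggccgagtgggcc

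In Isg15 the 3 overlapping cores began 78, 72 and 66 bases before the start. The stretches of Ifit3 and Ifit3b were identical over all 84 bases, with 0 differences, although the cores began 156 and 122 bases before the start in Ifit3 and 188 and 154 bases before it in Ifit3b. All 4 GTPase genes held an ISRE core, as did 6 of 8 sensors with a window and 5 of 15 effectors. So did 1 of 4 genes of the ISG15 and ubiquitin class and 1 of 5 transcription factor genes, with Nmi counted among these. In Ifih1, Ddx58 and Eif2ak2 the core lay after the start.

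**Figure D1:**
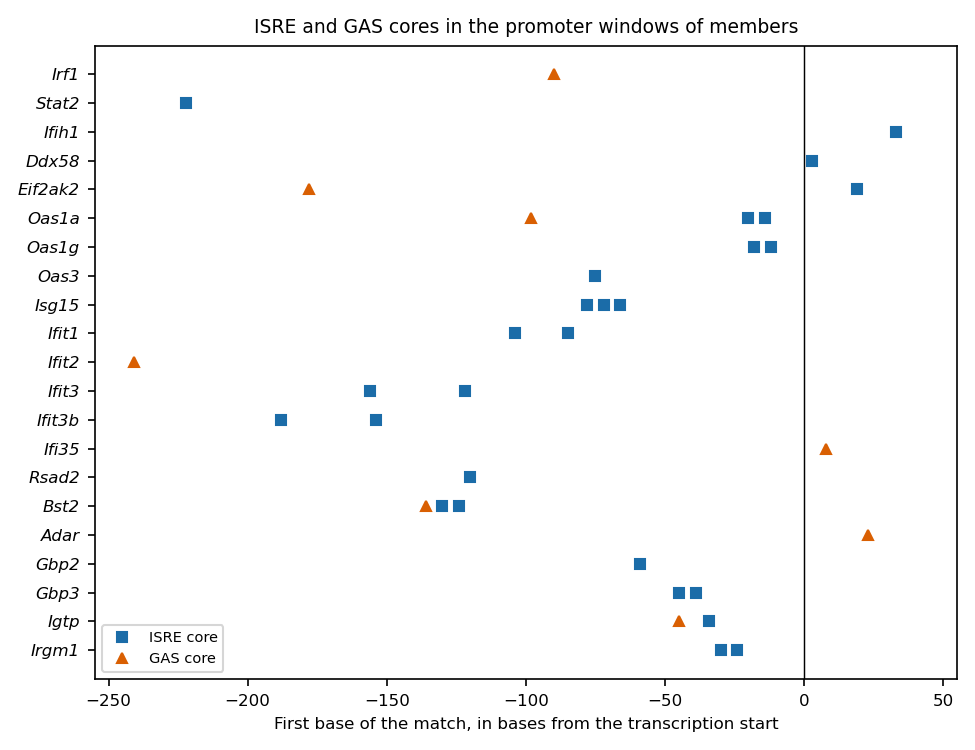
Position of each ISRE core (squares) and GAS core (triangles) in the promoter windows of members that hold at least 1, in bases from the transcription start at 0. Cores of Oas1a, Oas1g, Isg15, Bst2, Gbp3 and Irgm1 overlap one another, and the ISRE cores of Ifih1, Ddx58 and Eif2ak2 lie right of 0.

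The members were abundant in every library, including JC-WT. Their summed level was 11263 TPM for JC-WT, 18573 TPM for JC-P and 17679.8 TPM for JC-M3, or 1.13%, 1.86% and 1.77% of all transcripts. Of the 46, the 1000 highest features held 18 for JC-WT, 26 for JC-P and 23 for JC-M3. Isg15, the ubiquitin-like modifier, was at rank 47 of all features for JC-WT, 18 for JC-P and 14 for JC-M3. The lowest member by mean was Herc6 (19.1, 38.6 and 37.5 TPM; values given as 3 numbers follow the order JC-WT, JC-P, JC-M3), and Ifi44l was the lowest in JC-WT, at 12.6, 75.5 and 77.4 TPM. The median member was at 142, 198 and 179.0 TPM.

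**Figure D2:**
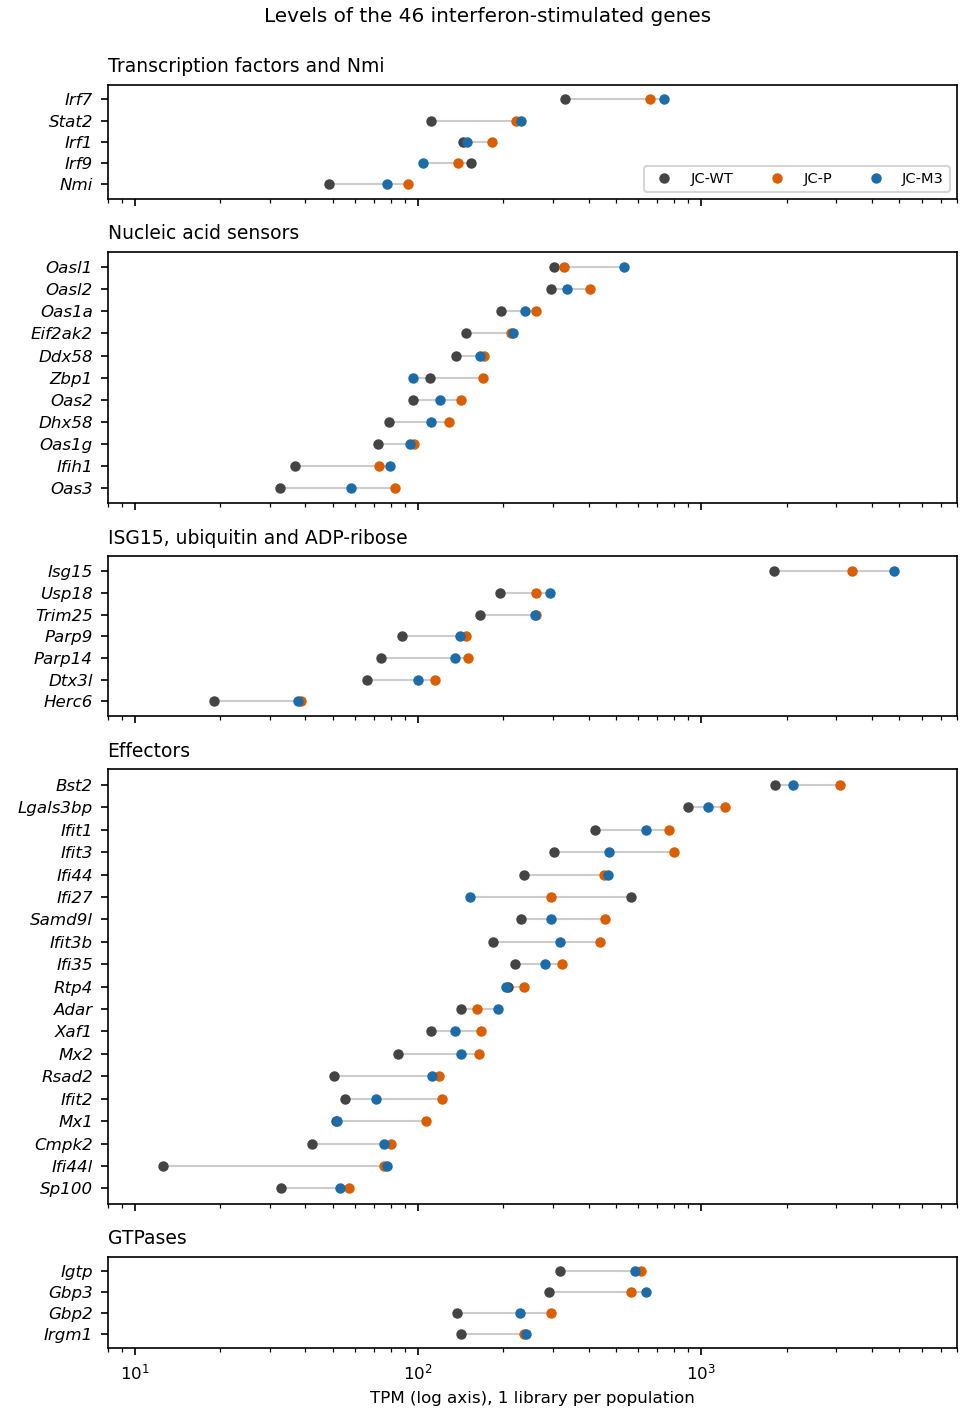
TPM of the 46 members by role, on a log axis, with 1 point per library coloured by population. JC-WT is the lowest of the 3 points for most members, and Ifi27 and Irf9 show the opposite order with JC-WT highest.

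JC-P, the cells from fat pad tumours, stood above JC-WT for nearly the whole list, by a modest factor. Of 46 members 44 had a ratio above 0 (50.9% of all features) and 2 below, Ifi27 and Irf9. The median log2 ratio was 0.79, or 1.73-fold, where the median of all measured features was 0.0101. At least 2-fold higher were 9 of 46 members (4.76% of all measured features, and 1.65% of the 9474 features that average 10 TPM or more, as every member does). None was at least 2-fold lower (2.33% of features). At a threshold of 1.5-fold, 31 members were higher and 1 lower, against 12.0% and 6.9% of features. The counting interval lay above no difference for 44 members and below it for 2, against 27.2% and 28.2% of features. An interval narrows as reads rise, so the shares of intervals over all features, here and below, are not matched to the members in level. Because 12 further members had ratios between 0.9 and 1, the count past 2-fold depends on the scaling, at 15 with upper-quartile scaling. Just inside the threshold stood Parp14 with 1.02, and just outside it Irf7 and Herc6, whose ratios of 1.00 are rounded up.

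**Figure D3:**
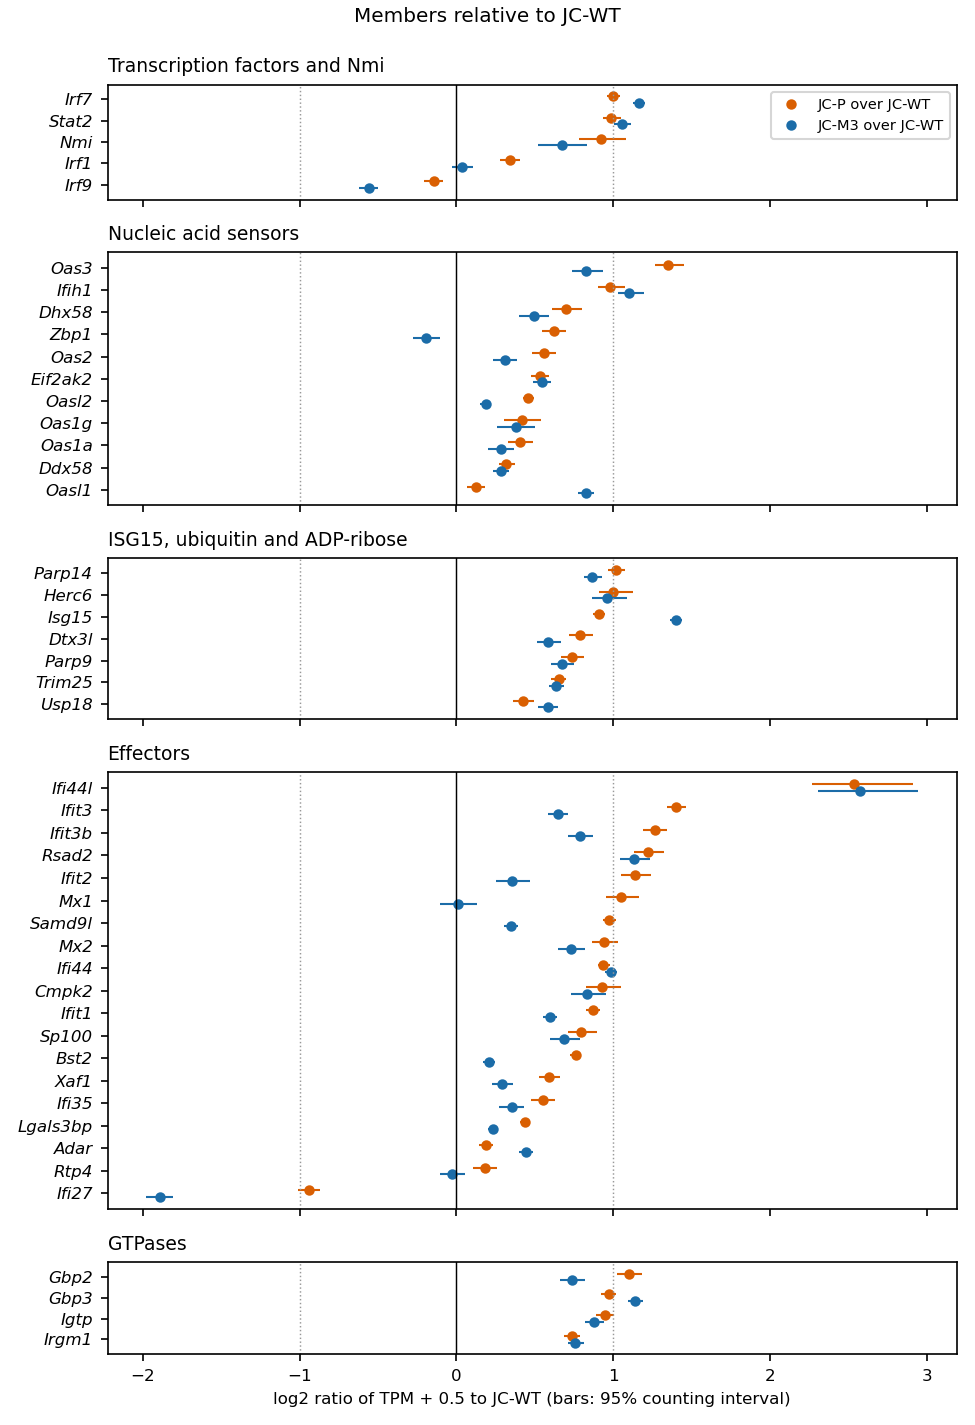
Log2 ratio of TPM + 0.5 to JC-WT for JC-P and JC-M3, by role, with 95% counting intervals; dotted lines mark 2-fold. Ifi44l lies farthest right in both populations, and Ifi27 farthest left.

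**Figure D4:**
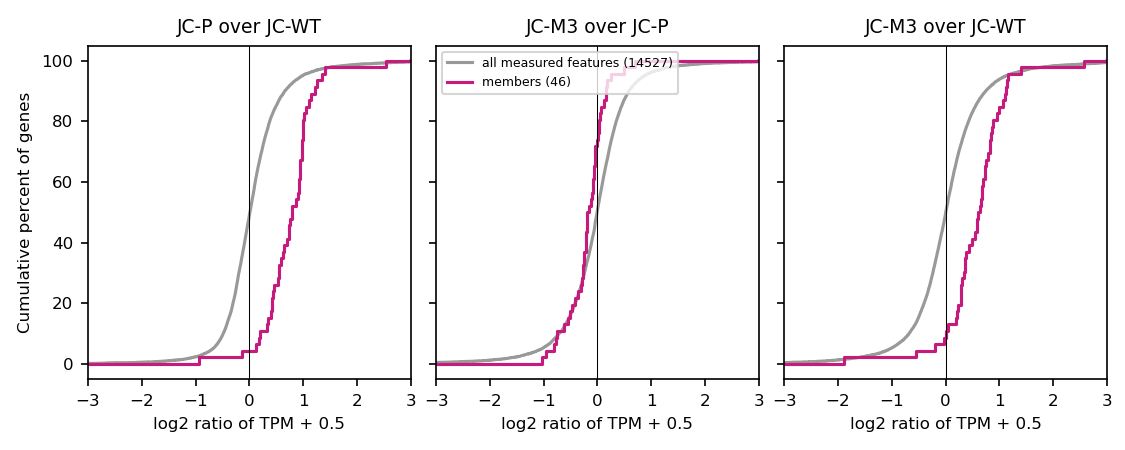
Cumulative percent of the 46 members and of all 14527 measured features by log2 ratio in each comparison. For JC-P/JC-WT and JC-M3/JC-WT the members' curve lies right of that of all features, with medians of 0.79 and 0.62. For JC-M3/JC-P the members' median is -0.17. The lower quartiles are close there (-0.302 for members, -0.318 for all features), while the upper quartile is lower for members (0.006 against 0.274).

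Relative to JC-P, JC-M3 was slightly lower in the median and divided by gene. The median log2 ratio of JC-M3/JC-P was -0.17, beside -0.0076 for all features. Of the 46 members 34 were below 0 and 12 above, against 50.7% and 49.2% of features. One of 46 was at least 2-fold lower (5.38% of features, 2.84% of those averaging 10 TPM or more) and 0 at least 2-fold higher (3.82%). At 1.5-fold, 6 members were lower and 1 higher, where 13.3% and 10.0% of features were. Subtracting the median of each chromosome changed the sign of 7 members, Stat2, Eif2ak2, Herc6, Trim25, Ifi44, Ifi44l and Gbp3, and put 15 outside their counting intervals. The shares past a threshold are at or below those of all features. The counting interval lay below no difference for 30 members, above it for 9 and across it for 7, against 30.1% of features below and 29.6% above.

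Against JC-WT, JC-M3 had a raised list median. For JC-M3/JC-WT the median was 0.62, or 1.53-fold, beside 0.0016 for all features. At least 2-fold higher were 7 members (6.14% of features, 2.61% of those averaging 10 TPM or more), and 1 was at least 2-fold lower (5.27%). At 1.5-fold, 25 were higher and 1 lower, against 14.0% and 12.5%. The interval lay above no difference for 40 members and below it for 3, against 29.6% and 30.5% of features. By level, JC-P was highest and JC-WT lowest for 30 members, and JC-M3 highest and JC-WT lowest for 12. Zbp1 and Rtp4 were highest in JC-P and lowest in JC-M3, and Irf9 and Ifi27 highest in JC-WT and lowest in JC-M3. The 3 comparisons share libraries, so each ratio is given beside the levels and no overlap between comparisons is drawn. With 1 library each, a shift of the whole JC-WT culture and a difference of the populations cannot be told apart.

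**Figure D5:**
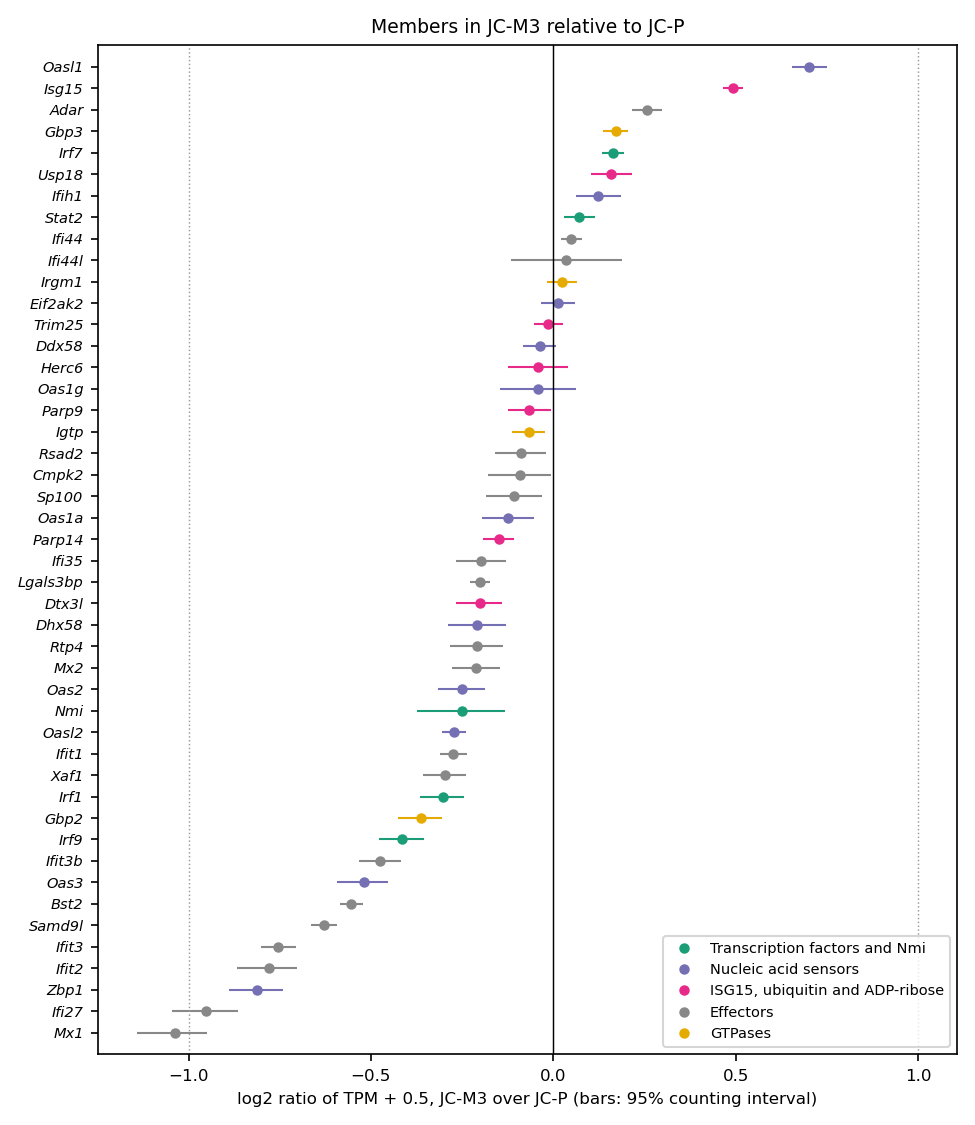
Log2 ratio of TPM + 0.5 of JC-M3/JC-P for each member, ordered by value and coloured by role, with 95% counting intervals. Oasl1 and Isg15 lie highest at 0.70 and 0.49, and Mx1 and Ifi27 lowest at -1.04 and -0.95.

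The transcription factors did not share one order. Irf7, the factor that amplifies interferon production, stood at 329 TPM (JC-WT), 659 TPM (JC-P) and 738 TPM (JC-M3). JC-M3 was highest, with log2 ratios of 1.00 [0.96, 1.04] for JC-P/JC-WT and 0.16 [0.13, 0.19] for JC-M3/JC-P. Stat2, the signal transducer of the type I receptor, stood at 111 TPM (JC-WT), 221 TPM (JC-P) and 232 TPM (JC-M3), and its JC-P/JC-WT ratio was 0.99 [0.93, 1.05]. It lies on chromosome 10, whose measured features had medians of 0.19 for JC-P/JC-WT and 0.40 for JC-M3/JC-WT, and the part of that shift in the level of Stat2 was not tested. Irf9, the DNA-binding partner of STAT2, had the opposite order, with 153 TPM (JC-WT), 139 TPM (JC-P) and 104 TPM (JC-M3). Its log2 ratio was -0.15 [-0.20, -0.09] for JC-P/JC-WT and -0.56 [-0.62, -0.50] for JC-M3/JC-WT, so JC-WT was highest and JC-M3 lowest. Chromosome 14, which carries Irf9, had a median of -0.25 over its measured features for JC-M3/JC-WT, and its part in that ratio was not tested. The Irf9 gene overlaps Rnf31 on the same strand (30.3, 39.6 and 33.7 TPM). Irf1, a factor that gamma interferon induces and whose GAS core is printed above, stood at 144, 183 and 148 TPM, higher in JC-P alone. Its ratio for JC-M3/JC-WT was 0.04 [-0.03, 0.11]. Nmi, which binds STAT proteins, stood at 48.4, 92.2 and 77.4 TPM.

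All 11 sensors were higher in JC-P than in JC-WT (50.9% of all features), with a median of 0.53, the lowest of the 5 roles. Of the 11, 1 was at least 2-fold higher (4.76% of all features, 1.65% of those averaging 10 TPM or more). That one was Oas3, an enzyme making the second messenger of RNase L, at 32.4 TPM (JC-WT), 83.2 TPM (JC-P) and 57.8 TPM (JC-M3) and a log2 ratio of 1.35 [1.27, 1.45]. JC-M3 lay between the other 2 populations for Oas3. Among the receptors of double-stranded RNA, Ifih1 (MDA5) stood at 36.8, 73.0 and 79.5 TPM, with log2 ratios of 0.98 [0.90, 1.07] for JC-P/JC-WT and 1.10 [1.03, 1.19] for JC-M3/JC-WT. Ddx58 (RIG-I) stood at 136, 170.1 and 166 TPM, a smaller difference of 0.32 [0.27, 0.37] for JC-P/JC-WT. Dhx58 (LGP2), which modulates both, was at 78.8, 128 and 111 TPM. Eif2ak2 (PKR), the kinase that halts translation on double-stranded RNA, was at 148, 213 and 215 TPM, level between JC-P and JC-M3.

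Zbp1, the sensor of Z-form nucleic acid that can trigger necroptosis, was higher in JC-P alone, at 110.0 TPM (JC-WT), 169 TPM (JC-P) and 96.2 TPM (JC-M3). Its log2 ratio was 0.62 [0.55, 0.70] for JC-P/JC-WT and -0.81 [-0.89, -0.74] for JC-M3/JC-P, and JC-M3 lay below JC-WT. Chromosome 2, which carries Zbp1, Nmi and Ifih1, had a median of -0.27 for JC-M3/JC-WT, and with chromosome medians subtracted the JC-M3/JC-WT ratio of Zbp1 changed sign.

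The other oligoadenylate synthetase genes lie with Oas3 on chromosome 5. Oas2 stood at 96.2, 142 and 119 TPM, Oas1a at 196, 260.3 and 239 TPM and Oas1g at 72.1, 96.5 and 93.7 TPM. Of the 50-base windows of Oas1a transcripts 57.6% also occur in Oas1g, so the split of reads between this pair is uncertain. The related Oasl genes went separate ways. Oasl2 was at 295, 406 and 336 TPM, highest in JC-P. Oasl1, which limits translation of Irf7, was at 301 TPM (JC-WT), 328 TPM (JC-P) and 535 TPM (JC-M3), nearly level in JC-WT and JC-P (0.12) and higher in JC-M3, with a log2 ratio of 0.70 [0.66, 0.75] over JC-P. An antisense gene, Gm13822, overlaps Oasl1 and stood at 4.31, 9.24 and 27.4 TPM. The strand setting of the counting is not given in the sources used here, and the part of such reads in the level of Oasl1 was not tested.

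Isg15, with its machinery, was the most abundant member in JC-P and JC-M3. Isg15 stood at 1806 TPM (JC-WT), 3392 TPM (JC-P) and 4775 TPM (JC-M3). Its reads were not recovered as whole numbers, so its intervals are approximate. JC-M3 was highest and JC-WT lowest, with log2 ratios of 0.91 [0.87, 0.95] for JC-P/JC-WT and 0.49 [0.47, 0.52] for JC-M3/JC-P. Usp18, the protease that removes ISG15 and also restrains the type I receptor, followed the same order at 194, 261 and 291 TPM. Herc6, the mouse ligase that attaches ISG15, was at 19.1, 38.6 and 37.5 TPM, and Trim25, the ubiquitin ligase that acts on RIG-I, at 166, 261 and 258 TPM. Both were higher in JC-P than in JC-WT, and their intervals for JC-M3/JC-P crossed 0. Together the 7 genes of this class summed to 2414, 4364 and 5737 TPM, of which Isg15 is the largest part.

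The ADP-ribosyl transferases Parp9 and Parp14 and the ubiquitin ligase Dtx3l, which pairs with PARP9, are neighbours on chromosome 16. Parp14 stood at 73.8, 149.9 and 135 TPM, with a log2 ratio of 1.02 [0.97, 1.08] for JC-P/JC-WT. Dtx3l was at 66.1, 115 and 99.5 TPM and Parp9 at 87.9, 147 and 140.4 TPM. In all 3 genes JC-P was highest and JC-M3 a little below it, with ratios of -0.15, -0.20 and -0.07 for JC-M3/JC-P. Dtx3l and Parp9 overlap on opposite strands.

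Effectors held the highest and the lowest ratios to JC-WT. Of 19, 18 were higher in JC-P than in JC-WT (50.9% of all features), with a median of 0.93. Of these, 6 were past 2-fold (4.76% of all features, 1.65% of those averaging 10 TPM or more). The median of the 19 for JC-M3/JC-P was -0.21, with 16 intervals below 0 (30.1% of all features). Ifi44l, a relative of Ifi44 of little-known function, stood at 12.6 TPM (JC-WT), 75.5 TPM (JC-P) and 77.4 TPM (JC-M3), from 93, 683 and 731 reads. Its log2 ratio of 2.54 [2.27, 2.91] for JC-P/JC-WT was the highest of the list, and it was the 1 member past 3-fold. Ifi44, its neighbour on chromosome 3, was at 237, 454 and 470.0 TPM. For JC-M3/JC-P the ratios were 0.04 [-0.12, 0.19] and 0.05 [0.02, 0.08], close to 0 in both.

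The Ifit genes, which encode antiviral tetratricopeptide proteins, lie side by side on chromosome 19. Ifit3 stood at 302 TPM (JC-WT), 799 TPM (JC-P) and 474 TPM (JC-M3), with log2 ratios of 1.40 [1.34, 1.47] for JC-P/JC-WT and -0.75 [-0.80, -0.71] for JC-M3/JC-P. Ifit2 stood at 55.1, 122 and 70.7 TPM, with 1.14 [1.05, 1.24] and -0.78 [-0.87, -0.70]. Ifit3b was at 183, 440.2 and 317 TPM and Ifit1 at 420.4, 769 and 636 TPM. In all 4 JC-P was highest and JC-M3 lay between it and JC-WT. Of the Ifit3 windows 51.2% occur in Ifit3b as well, so the division between that pair, whose promoter stretches are identical above, is uncertain.

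Mx1 differed by less than its counting error between JC-M3 and JC-WT, whereas Mx2 was higher in JC-M3. Mx1, a dynamin-like GTPase that blocks influenza viruses and is non-functional in many inbred mice, stood at 51.1 TPM (JC-WT), 106 TPM (JC-P) and 51.6 TPM (JC-M3). Its log2 ratio was 1.05 [0.95, 1.16] for JC-P/JC-WT, -1.04 [-1.14, -0.95] for JC-M3/JC-P and 0.01 [-0.10, 0.13] for JC-M3/JC-WT. It was the 1 member at least 2-fold lower in JC-M3 than in JC-P. Mx2, next to it on chromosome 16, stood at 84.9, 163 and 141 TPM, with 0.73 [0.65, 0.82] for JC-M3/JC-WT.

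Rsad2 (viperin), which makes a chain-terminating nucleotide, and Cmpk2, a mitochondrial nucleotide kinase gene, adjoin on chromosome 12. Rsad2 stood at 50.6, 119 and 111 TPM and Cmpk2 at 42.1, 80.5 and 75.5 TPM. Both were higher in JC-P than in JC-WT, by 1.22 [1.13, 1.32] and 0.93 [0.82, 1.05]. Their ratios for JC-M3/JC-P were -0.09 [-0.16, -0.02] and -0.09 [-0.18, -0.01]. Sp100, a component of nuclear bodies, stood at 32.7, 57.1 and 53.0 TPM, also highest in JC-P.

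Most of the remaining effectors were highest in JC-P, with JC-M3 lower than JC-P. Bst2 (tetherin), which holds budding virions at the membrane and was the most abundant member in JC-WT, stood at 1828 TPM (JC-WT), 3097 TPM (JC-P) and 2109.7 TPM (JC-M3). Its log2 ratio was 0.76 [0.72, 0.80] for JC-P/JC-WT and -0.55 [-0.59, -0.52] for JC-M3/JC-P. Samd9l, a restriction factor of poxviruses, was at 232, 456 and 295 TPM. Xaf1, a pro-apoptotic factor, was at 111, 167 and 135 TPM, Ifi35, a partner of NMI, at 219, 322 and 280.1 TPM, and the secreted glycoprotein gene Lgals3bp at 899, 1215 and 1057 TPM. Rtp4, a chaperone of receptors, was nearly level at 208, 236 and 204 TPM. Adar, which edits double-stranded RNA and so restrains its sensors, had another order at 141, 161 and 192 TPM, with JC-M3 highest and a ratio of 0.26 [0.22, 0.30] for JC-M3/JC-P.

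Ifi27 ran against the list. It encodes a small mitochondrial membrane protein and stood at 567 TPM (JC-WT), 295 TPM (JC-P) and 152 TPM (JC-M3). The log2 ratio was -0.94 [-1.01, -0.87] for JC-P/JC-WT, -0.95 [-1.05, -0.86] for JC-M3/JC-P and -1.89 [-1.98, -1.81] for JC-M3/JC-WT. It was thus the 1 member at least 2-fold lower in JC-M3 than in JC-WT. Its relative Ifi27l2a, which is no member, stood at 146, 203 and 475 TPM, with a log2 ratio of 1.69 [1.53, 1.87] for JC-M3/JC-WT. It was singled out after its values were seen.

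The 4 GTPases were all higher in JC-P than in JC-WT (50.9% of all features), with a median of 0.96, the highest of the 5 roles. Gbp2, a guanylate-binding protein that attacks pathogen vacuoles, had levels of 137, 294 and 229 TPM and a JC-P/JC-WT ratio of 1.10 [1.02, 1.18]. Gbp3, its neighbour on chromosome 3, stood at 289, 567 and 638 TPM, with JC-M3 highest. The immunity-related GTPases Igtp and Irgm1, which mark and protect membranes, stood at 318, 613 and 585 TPM and 142, 237 and 241 TPM. They differed little between JC-P and JC-M3, at -0.07 [-0.11, -0.02] and 0.02 [-0.02, 0.07]. Igtp overlaps Irgm2 (178, 355 and 299 TPM) on the same strand. Chromosome 3, which carries Gbp2, Gbp3, Ifi44, Ifi44l and Adar, had a median of 0.23 over its measured features for JC-M3/JC-P, and its part in their ratios was not tested.

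By role the medians for JC-P/JC-WT were 0.96 for GTPases, 0.93 for effectors and 0.92 for transcription factors with Nmi. They were 0.79 for the ISG15 class and 0.53 for sensors. For JC-M3/JC-WT the medians were 0.82, 0.44, 0.67, 0.67 and 0.38 in the same order. In both comparisons the median of the transcription factor role is the ratio of Nmi, a partner of STAT proteins. For JC-P/JC-WT the factors themselves were at 1.00 (Irf7), 0.99 (Stat2), 0.34 (Irf1) and -0.15 (Irf9). Differences between roles were not tested, and members within a role overlap in ratio. The 17 members with an ISRE core had a median of 0.95 for JC-P/JC-WT, the 19 without one 0.79 and the 10 without a window 0.66. In that order the medians were 0.76, 0.59 and 0.40 for JC-M3/JC-WT and -0.07, -0.20 and -0.21 for JC-M3/JC-P. These differences were not tested, and Ifi44l, with the highest ratio to JC-WT, has no ISRE core in its window.

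Interferon transcripts themselves were scarce. Of 21 interferon genes, 15 had no read in any library, which allows up to 3 reads in each. That limit is uncertain for ligands that share sequence, as Ifna6 (55.9% of windows) and Ifna5 (52.2%) do, and so are the reads of Ifnz (75.1%) and Ifna1 (67.4%). Ifnb1, with 0.0% of windows shared and encoding interferon beta, was the 1 ligand that reached the mean of 1 TPM, at 1.24, 2.44 and 2.33 TPM from 5, 12 and 12 reads. The interval of JC-P/JC-WT, 0.75 [-0.64, 2.83], holds 0, so a difference was not detectable at this depth. Ifnz had 1, 4 and 1 reads, and Ifna1, Ifna4, Ifne and Ifng had at most 1 read in a library.

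Between JC-WT and JC-P the 5 measured receptor genes lay within 1.5-fold. The highest JC-P/JC-WT ratios were 0.38 [0.246, 0.525] for Ifngr1 and 0.31 [0.08, 0.57] for Il10rb. Ifnar1 stood at 40.5, 45.7 and 29.8 TPM and Ifnar2 at 20.4, 20.2 and 20.1 TPM, the 2 chains of the type I receptor. The log2 ratio of Ifnar1 was 0.17 [0.07, 0.28] for JC-P/JC-WT and -0.61 [-0.72, -0.51] for JC-M3/JC-P. The gamma receptor genes Ifngr1 and Ifngr2 stood at 44.8, 58.5 and 65.2 TPM and 17.0, 18.9 and 19.5 TPM. The shared chain Il10rb was at 11.0, 13.8 and 14.6 TPM, and the lambda receptor gene Ifnlr1 had 0, 0 and 2 reads. All 5 measured receptor genes lay within 2-fold in each comparison.

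Among the signalling genes outside the list, the kinase genes lay within 2-fold in each comparison, with Jak1 at 54.6, 62.3 and 77.1 TPM, Tyk2 at 14.7, 16.8 and 11.2 TPM and Jak2 at 21.2, 19.1 and 12.7 TPM. Stat3 was at 74.1, 79.9 and 65.0 TPM. Between JC-M3 and JC-P the ratio was -0.57 for Tyk2 and -0.57 for Jak2.

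Upstream sensing genes had a median near 0, at 0.15 for JC-P/JC-WT over 12 measured genes, with 2 at least 2-fold higher (4.76% of all features). These were the double-stranded RNA receptor gene Tlr3 (47.9, 96.995 and 94.7 TPM) and Irf5 (6.29, 13.4 and 45.96 TPM). Irf5, a factor for inflammatory cytokines, was highest in JC-M3. The lowest ratios were those of the adaptor gene Myd88 (126, 106 and 108 TPM) and of Irf3 (41.7, 37.6 and 38.5 TPM), which first induces interferon beta. Negative regulators had a median near 0 over 12 measured genes, 6 above 0 (50.9% of all features) and 6 below (49.0%). Past 2-fold were 0 of them (4.76% of all features higher, 2.33% lower). Socs1, an inhibitor of JAK kinases, was at 17.4, 23.9 and 22.1 TPM, Pias1 at 22.7, 26.7 and 26.0 TPM, Socs3 at 57.2, 40.3 and 76.5 TPM and Rnaseh2a, which removes ribonucleotides from DNA, at 42.2, 30.7 and 40.1 TPM.

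Interferon-stimulated genes outside the 46 had ratios in the same direction. Of 56 measured, 51 were above 0 for JC-P/JC-WT (50.9% of all features), 12 at least 2-fold higher (4.76%) and 1 lower (2.33%), with a median of 0.54. The highest were Epsti1 (0.64, 3.999 and 0.31 TPM) and Ifi205, of a DNA-sensor family (3.08, 12.9 and 10.5 TPM). Epsti1 rests on few reads (8, 61 and 5), with a ratio of 1.98 [1.57, 3.91]. The lowest were the scramblase family genes Plscr2 (3.93, 1.68 and 15.4 TPM) and Plscr1 (74.9, 49.6 and 50.9 TPM). For JC-M3/JC-WT the median was 0.44, beside 0.0016 for all features, with 43 of 56 above 0 (50.1% of all features).

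The remaining guanylate-binding and immunity-related GTPases were also higher in JC-P than in JC-WT. All 14 were above 0 for JC-P/JC-WT (50.9% of all features) and 10 were at least 2-fold higher (4.76%), with a median of 1.22 beside 0.96 for the 4 members, a difference that was not tested. The highest were Gbp11 (2.21, 7.86 and 5.90 TPM) and Tgtp1 (7.27, 22.5 and 20.1 TPM), and the lowest Gbp10 (6.74, 11.3 and 6.77 TPM) and Gbp9 (115, 201 and 151 TPM). Windows shared with other genes made up 81.2% for Tgtp1, 86.6% for Tgtp2, 84.1% for Gbp10 and 70.7% for Gbp6, so the values of these genes are uncertain. Of them, Tgtp1, Tgtp2 and Gbp6 are among the 10 at least 2-fold higher. The median of the 14 for JC-M3/JC-P was -0.40, with 11 of 14 below 0 (50.7% of all features).

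Of 11 targets associated with gamma interferon, 4 were measured. H2-Aa, H2-Ab1 and H2-Eb1 had 0 reads in all libraries, and Ciita, Irf8, Ido1 and Cxcl9 had reads but a mean below 1 TPM, such as 27, 24 and 45 reads for Irf8. The chemokine genes Cxcl10 and Cxcl11 stood at 32.8, 79.7 and 171 TPM and 0.79, 4.09 and 8.22 TPM, lowest in JC-WT and highest in JC-M3. Nlrc5, the activator of MHC class I genes, was at 27.4, 36.6 and 37.4 TPM, and Cd74, the invariant chain, at 0.56, 0.36 and 4.08 TPM.

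The markers of other cells were set beside these results. Leukocytes express many of the 46 genes strongly, and of 18 immune markers 4 were measured, Cd68, Cd14, Itgax and S100a8. Ptprc, Adgre1 and Siglech had 0 reads in all 3 libraries, which allows up to 3 reads in each. Itgam was also at 0, but 66.3% of its windows occur in another gene, so its 0 is uncertain. The summed immune markers stood at 72.4, 51.6 and 77.1 TPM, mostly Cd14 (55.2, 42.3 and 62.4 TPM) and Cd68 (11.9, 6.78 and 7.65 TPM), and their part in the members' ratios was not tested. Of 8 endothelial markers 3 were measured, with a sum of 12.0, 39.2 and 5.68 TPM. In that list Cdh5 stood at 0.09, 17.7 and 0.10 TPM and Plvap at 7.6, 17.8 and 2.7 TPM, both highest in JC-P. Egfl7, at 4.1, 3.3 and 2.6 TPM, was highest in JC-WT, while Kdr had 0 reads and Pecam1 5, 10 and 10 reads. Fibroblast markers, 6 of 8 measured, summed to 222, 417 and 1088 TPM, with Lum at 0 reads. Most of the sum was Col1a1 (132, 261 and 949 TPM), whose order Dcn (1.25, 14.0 and 22.5 TPM) shared. Col3a1 (3.99, 46.01 and 8.76 TPM), Pdgfra (34.1, 47.6 and 20.1 TPM), Pdgfrb (48.7, 46.5 and 87.9 TPM) and Dpt (2.27, 2.12 and 0.25 TPM) had other orders. Endothelial and fibroblast sums were thus also higher in JC-P than in JC-WT, and their part in those ratios was not tested either. Of the epithelial markers 3 of 8 were measured. Krt8 stood at 1503, 1873 and 681 TPM and Krt18 at 48.6, 48.5 and 18.4 TPM, whereas Epcam had 0 reads in each library and Cdh1 0, 25 and 21 reads. The cells are labelled epithelial-like, and of that list Krt8 and Krt18 were the 2 above 2 TPM in any library, with Krt7 at 1.74, 0.58 and 1.70 TPM and Krt19 at 1, 0 and 0 reads.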

How the data were processed

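Polyadenylated RNA of 3 populations was sequenced, with 1 library for each. Values in the deposited table are TPM, a unit that the authors scaled by gene length and library, as its column names and sums show. Tools listed in the submitters' processing notes are STAR 2.7.9a, FastQC 0.11.9 and featureCounts, and builds mm10 and GRCm38. Which annotation was used, and whether counting used strand, is not given there. Each population has 1 library, so levels were compared as log2 ratios of deposited TPM with no test. The members and lists were chosen with earlier results of these data known.

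TPM times the merged exon length of GENCODE M21 (GRCm38) was a whole multiple of a fixed step per library, within 0.01 of a read, for 98.4% to 98.5% of expressed features and for 45 of 46 members, the exception being Isg15. From these reads came an exact (Clopper-Pearson) interval for every ratio, and 3 reads served as the floor. Every member was named, and of the other pathway lists the receptors, kinases and STAT genes, ligands with a read, and the 2 highest and 2 lowest ratios of JC-P over JC-WT. One gene of the signalling list is not reported here. Sequence shared with other genes was counted in 50-base transcript windows. Alternatives covered pseudocount, filter, scaling, threshold, chromosome medians, repeated symbols and shared sequence. Calculations used scipy 1.17.1 and pandas 2.3.3 under Python 3.11.15, and plots matplotlib 3.10.9.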

Additional observations from a re-analysis of the deposited data

How the results depend on the processing

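The median log2 ratio of the 46 members kept its sign under every alternative run, at 0.77 to 0.83 for JC-P/JC-WT, -0.18 to -0.16 for JC-M3/JC-P and 0.60 to 0.66 for JC-M3/JC-WT. The counts past 2-fold moved with the threshold and the scaling. For JC-P/JC-WT the 9 members higher became 15 with upper-quartile scaling, 12 without mitochondrial transcripts, 11 with chromosome medians subtracted, 31 at 1.5-fold and 1 at 3-fold, and the 0 lower became 1 at 1.5-fold. For JC-M3/JC-P the 0 higher became 1 at 1.5-fold, and the 1 lower became 6 at 1.5-fold and 0 at 3-fold. For JC-M3/JC-WT the 7 higher became 25 at 1.5-fold, 1 at 3-fold, 9 with upper-quartile scaling and 5 with chromosome medians subtracted. Subtracting chromosome medians changed the sign of 0, 7 and 1 of the 46 members for JC-P/JC-WT, JC-M3/JC-P and JC-M3/JC-WT, and put 8, 15 and 18 outside their counting intervals. Upper-quartile scaling moved the median of all features to 0.047 for JC-P/JC-WT. Leaving out Oas1a and Ifit3, with over 50% of windows shared, gave 8 for JC-P/JC-WT. No paired analysis was possible because each population has 1 library.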
